A study of Mus musculus with 12 samples.

Results

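The report concerns 10 genes of antigen presentation and the immunoproteasome in mouse hippocampus: the class I heavy chains H2-K1 and H2-D1, their light chain B2m, the peptide loading genes Tap1 and Tapbp, the immunoproteasome subunits Psmb8 and Psmb9, and the class II pathway genes H2-Aa, H2-Ab1 and Cd74. A probe set belonged to the set when the platform annotation gave it exactly 1 gene symbol and that symbol was among the 10. This held for 17 probe sets of the 12422 tested and for 10 of the 8251 genes with a symbol of their own. The genes were selected on their differences between mutants and controls in these same data, so those differences are given as descriptions, and tests are given for the response to kainate.

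Hippocampal RNA was hybridised to 12 Affymetrix arrays (MG-U74A), with 3 arrays in every group. The groups were mutants given kainate, mutants given saline, controls given kainate and controls given saline. The title of the series describes loss of CREB and CREM, a pair of related transcription factors, and the labels give neither the alleles, the cells in which the genes were lost, nor the genotype of the controls beyond that word. All mice were littermates of both sexes, 5 to 6 weeks old, caged singly, handled, and injected into the peritoneum. The kainate dose was 20 mg/kg, tissue was taken 1 h later, and RNA of 3 animals was combined for each array, so that a group held 9 animals. A pool mixes males and females, and the labels do not give their numbers.

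Class I molecules carry peptides made in the cell to its surface, where CD8 T cells read them. The peptides are cut by the proteasome, whose catalytic subunits can be exchanged for those of the immunoproteasome (Psmb8, Psmb9 and Psmb10 in place of Psmb5, Psmb6 and Psmb7), pumped into the endoplasmic reticulum by the TAP transporter and loaded onto the heavy chain with the help of tapasin, the product of Tapbp. Class II molecules present peptides from outside the cell, and Cd74, the invariant chain, occupies their groove until it is degraded in the endosome. In healthy brain these molecules are found mainly on microglia and vessel cells, neurons carry little class I, and kainate, a glutamate receptor agonist, evokes seizures.

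The arrays correlated with each other at 0.973 to 0.998 across probe sets. The control kainate replicate 3 array stood apart, with an interquartile range of 3.74 log2 units against 4.40 to 4.61 on the other 11 arrays, and the replicate 1 arrays of all groups deviated together. The neuronal marker Snap25 and the hippocampal marker Calb1 were bright in the tissue, at means of 13.37 and 9.49. The averaged difference of mutants from controls was -0.09 to -0.12 for the 3 Creb1 probe sets, which lay below the median level of the array. Control kainate replicate 3 held the highest value of each of these, and under saline they differed by only -0.02 to -0.03. For the Crem probe sets the averaged difference was -0.25 and -0.29. It was -0.16 and -0.08 under saline, and -0.34 and -0.51 under kainate. No probe set of either gene passed the test for the averaged difference (limma adjusted p between 0.141 and 0.630). Where the deletions lie relative to these probes is not given in the labels, so the values check the labels only weakly. In bulk tissue, fewer cells of a type and less RNA per cell cannot be told apart.

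Of the 10 genes, 8 lie on chromosome 17 in the major histocompatibility complex, in the order Tapbp, H2-K1, Psmb9, Tap1, Psmb8, H2-Ab1, H2-Aa and H2-D1, and no protein-coding gene separates Psmb9, Tap1 and Psmb8. B2m and Cd74 lie elsewhere. Promoters are shown because loss of CREB and CREM bears on the cAMP response element, and because promoters of class I, class II and B2m genes are known for a module in which an X box, part of which resembles that element, lies upstream of an inverted CCAAT box. RefSeq windows (GRCm38.p6) matched 8 of the 10 genes, all but Cd74 and H2-Ab1, and the 250 bases upstream of the start site were searched on both strands. Capitals in the following sequences, written 5′ to 3′ in the direction of the gene, mark each match to the cAMP response element half-site TGACG or its full form TGACGTCA, the inverted CCAAT box ATTGG, an NF-kappa B site, an interferon-stimulated response element core or the STAT site TTCNNNGAA. The half-site is part of the full form, and in both heavy chains the NF-kappa B matches of the 2 strands overlap. The light chain, both heavy chains and the class II chain, which share the half-site and the CCAAT box in the same order, lie at chr2:122147437-122147686 (plus strand), chr17:35262844-35263093 (plus), chr17:34000348-34000597 (minus) and chr17:34287824-34288073 (minus).
B2m: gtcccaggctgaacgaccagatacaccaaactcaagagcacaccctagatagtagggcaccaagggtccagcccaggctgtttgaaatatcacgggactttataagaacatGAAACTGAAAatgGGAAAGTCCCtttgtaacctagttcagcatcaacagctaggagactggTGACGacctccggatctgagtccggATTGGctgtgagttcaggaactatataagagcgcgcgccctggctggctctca
H2-D1: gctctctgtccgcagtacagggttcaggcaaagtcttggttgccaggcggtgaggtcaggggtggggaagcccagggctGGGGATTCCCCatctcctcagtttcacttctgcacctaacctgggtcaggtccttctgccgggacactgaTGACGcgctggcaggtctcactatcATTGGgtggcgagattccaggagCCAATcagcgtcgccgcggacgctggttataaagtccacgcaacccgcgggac
H2-K1: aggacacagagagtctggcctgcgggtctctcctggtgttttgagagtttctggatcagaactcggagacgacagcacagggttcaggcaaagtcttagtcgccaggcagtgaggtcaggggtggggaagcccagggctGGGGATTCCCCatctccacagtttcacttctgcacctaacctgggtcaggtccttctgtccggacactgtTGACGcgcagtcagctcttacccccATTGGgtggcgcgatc
H2-Aa: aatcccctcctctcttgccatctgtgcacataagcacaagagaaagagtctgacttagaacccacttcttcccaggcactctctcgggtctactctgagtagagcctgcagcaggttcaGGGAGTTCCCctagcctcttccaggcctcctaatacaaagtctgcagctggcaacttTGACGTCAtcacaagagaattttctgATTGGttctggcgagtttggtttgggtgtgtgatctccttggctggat
In B2m, H2-D1 and H2-K1 the half-site began 25 bases upstream of the CCAAT box, start to start, and in H2-Aa 26 bases upstream. That arrangement, whose spacing was read from these promoters, occurred in 27 of 32851 windows (0.0822%). The half-site alone occurred in 17.8% of windows and in 6 of the 8 genes, and the CCAAT box in 33.8% of windows and in 7 of the 8. Psmb9 and Tap1 have overlapping windows, and their matches to both are the same bases read from opposite strands, so each site is counted for both genes. The full element, in 1.55% of windows, was found in H2-Aa alone among the 8. The NF-kappa B letters occurred in 3.44% of windows and in the same 4 genes. The exact letters searched for the interferon core occurred in 2.98% of windows, and in B2m alone among the 8. Variants of that core were not searched for. A window without a match, such as those of H2-K1 and H2-D1, is therefore not shown to lack an interferon element.

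The promoters of Psmb8 (chr17:34197945-34198194, plus strand) and Tapbp (chr17:33919228-33919477, plus) are shown beside those above.
Psmb8: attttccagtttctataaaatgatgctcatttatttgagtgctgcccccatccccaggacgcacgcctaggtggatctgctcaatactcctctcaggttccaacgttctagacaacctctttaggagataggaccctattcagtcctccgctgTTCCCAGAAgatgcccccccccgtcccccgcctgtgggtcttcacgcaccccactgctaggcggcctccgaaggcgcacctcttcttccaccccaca
Tapbp: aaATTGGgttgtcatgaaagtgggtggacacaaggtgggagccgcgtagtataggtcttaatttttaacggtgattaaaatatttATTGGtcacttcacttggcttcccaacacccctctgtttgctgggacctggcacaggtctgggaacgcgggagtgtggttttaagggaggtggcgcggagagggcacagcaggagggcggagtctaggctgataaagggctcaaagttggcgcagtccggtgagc
Neither window held the half-site. A link of these letters, in any of the windows, to the differences between mutants and controls was not tested. The Psmb8 window held a match to the STAT letters, which occur in 7.02% of windows, and the Tapbp window held the CCAAT box at 2 places. Psmb9 and Tap1 are transcribed away from each other, and their windows of 300 bases overlap by 275 bases. A match describes these letters only.

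For the class I light chain and the heavy chains, the brightest probe set of each gene had an averaged mutant minus control difference of 0.29 to 0.67. None of their probe sets was past the adjusted threshold of 0.05 between genotypes, which is a description, since the genes were selected on these differences. All values that follow are log2 GCRMA expression values, and errors of differences are standard errors of the limma fit. B2m, the light chain that class I needs to reach the surface, had 9.69, 9.91 and 9.37 in mutant saline arrays, against 9.72, 9.73 and 9.23 in control saline arrays. After kainate it had 9.92, 10.07 and 10.20 in mutants, against 9.31, 9.94 and 9.49 in controls. The groups overlapped under saline, and under kainate 1 control array lay above 1 mutant array. The mutant minus control difference was 0.10 (SE 0.20) under saline and 0.48 (SE 0.20) under kainate.

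For H2-K1, a heavy chain that presents peptides to CD8 T cells, the brightest of 3 probe sets had 8.04, 8.07 and 7.77 in mutant saline arrays, against 7.46, 7.67 and 7.50 in control saline arrays. Under kainate it had 7.80, 8.10 and 8.48 in mutants, against 7.29, 7.52 and 6.78 in controls. Every mutant array lay above every control array. The difference was 0.41 (SE 0.20) under saline and 0.93 (SE 0.20) under kainate, and averaged over both treatments it was 0.67 (SE 0.14), or 1.59-fold. Without control kainate replicate 3, the array with the lowest value, the kainate difference was 0.72. The second H2-K1 probe set, also above the median level of the array, had an averaged difference of 0.04 (SE 0.06).

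H2-D1, the other heavy chain, was read by 3 probe sets. Its brightest had 8.45, 8.24 and 8.08 in mutant saline arrays, against 7.85, 7.92 and 7.72 in control saline arrays. With kainate it had 8.12, 7.86 and 7.97 in mutants, against 7.86, 7.36 and 7.23 in controls. The genotypes did not overlap within either treatment, although control saline arrays reached the level of mutant kainate arrays. Its averaged difference was 0.46 (SE 0.11), and that of the second probe set was 0.55 (SE 0.13). These class I probe sets carry the suffix by which the manufacturer marks sets that can hybridise to several members of a gene family, so H2-K1 and H2-D1 cannot be separated with certainty. Another 3 probe sets name H2-K1 or H2-D1 beside other class I genes and were left out.

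Tapbp, whose product tapasin bridges the TAP transporter and empty class I, had 8.32, 8.01 and 7.88 on its brightest probe set in mutant saline arrays, against 7.78, 7.50 and 7.29 in control saline arrays. With kainate the values were 8.46, 8.34 and 8.17 in mutants, against 7.98, 7.50 and 7.07 in controls. All mutant arrays lay above the control arrays of the same treatment, and across treatments mutant saline replicate 3 lay below control kainate replicate 1. The averaged difference was 0.67 (SE 0.15), or 1.60-fold. Tap1, a subunit of the transporter itself, stayed between 2.31 and 2.52 on its brighter probe set, near the low end of the array, and differed by -0.05 (SE 0.05).

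Of the immunoproteasome subunits among the 10 genes, Psmb8 was measured near the middle of the array's range and Psmb9 near its low end, and the difference between them was not tested. Psmb8, the subunit with chymotrypsin-like activity that takes the place of Psmb5, had 5.76, 5.99 and 5.69 in mutant saline arrays, against 4.30, 4.59 and 4.50 in control saline arrays. Under kainate it had 5.56, 5.46 and 6.11 in mutants, against 4.56, 4.48 and 4.28 in controls. The lowest mutant array, at 5.46, stood clear of the highest control array, at 4.59, and within a genotype the arrays of both treatments overlapped. The group means were 5.82 ± 0.16 (SD, n = 3) in mutant saline, 4.47 ± 0.15 in control saline, 5.71 ± 0.35 in mutant kainate and 4.44 ± 0.15 in control kainate arrays. Its difference was 1.35 (SE 0.17) under saline and 1.27 (SE 0.17) under kainate, a 2.48-fold difference on average. Psmb9, the subunit that takes the place of Psmb6, lay between 2.50 and 2.66 on 11 arrays and at 3.15 on control kainate replicate 3. Its averaged difference was -0.11 (SE 0.10), and -0.02 without that array.

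The constitutive subunits and the third immunoproteasome subunit lie outside the 10 genes and were tested, although their lists were drawn up with earlier results of these data known. Psmb10, the immunoproteasome subunit that takes the place of Psmb7, ranged from 7.05 to 7.39 over the 6 mutant arrays, against 6.62 to 7.27 over the 6 control arrays. It differed by 0.18 (SE 0.10, limma adjusted p = 0.630). Psmb5 differed by -0.18 (SE 0.24, limma adjusted p = 0.677), Psmb6 by 0.27 (SE 0.07, limma adjusted p = 0.144) and Psmb7 by -0.10 (SE 0.10, limma adjusted p = 0.630). None of the 4 passed the threshold of 0.05, and only Psmb6 had all mutant arrays (9.55 to 9.81) above all control arrays (9.16 to 9.50).

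**Figure D1:**
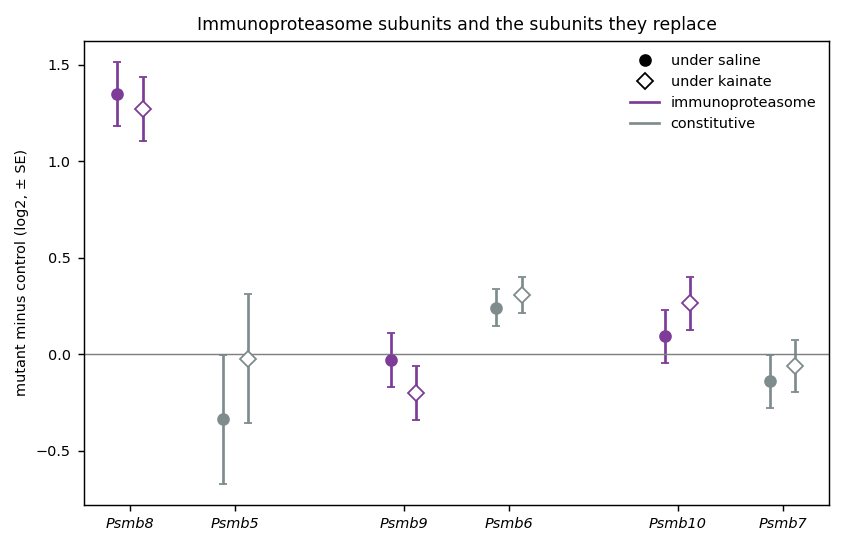
Mutant minus control difference (log2, ± SE, 3 arrays per group) of each immunoproteasome subunit beside the constitutive subunit it replaces, under saline (filled circles) and under kainate (open diamonds). Psmb8 stands at 1.35 and 1.27, and the other 5 subunits lie between -0.34 and 0.31.

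In the class II pathway the invariant chain stood higher in mutants while the chains it escorts were dim. Cd74 had 6.05, 5.65 and 5.30 in mutant saline arrays, against 5.02, 4.66 and 5.04 in control saline arrays. Under kainate Cd74 had 6.42, 6.14 and 6.51 in mutants, against 5.27, 5.10 and 4.33 in controls. All 6 mutant arrays lay above all 6 control arrays, by a narrow margin between mutant saline replicate 3 and control kainate replicate 1. The difference for Cd74 was 0.76 (SE 0.25) under saline and 1.46 (SE 0.25) under kainate, and 2.16-fold on average. Without control kainate replicate 3 the kainate difference was 1.17.

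H2-Aa and H2-Ab1 encode the alpha and beta chains of the class II molecule I-A. H2-Aa lay between 1.65 and 1.96 on all arrays, with an averaged difference of -0.03 (SE 0.06), and its highest value was on control kainate replicate 3. H2-Ab1 had 2.99, 2.92 and 3.00 in mutant saline arrays, against 2.91, 2.88 and 2.88 in control saline arrays. With kainate it had 2.86, 2.85 and 3.58 in mutants, against 2.87, 2.71 and 3.04 in controls. The mutant kainate mean of H2-Ab1 rested on replicate 3, and the kainate difference of 0.22 (SE 0.17) was -0.02 without that array.

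**Figure D2:**
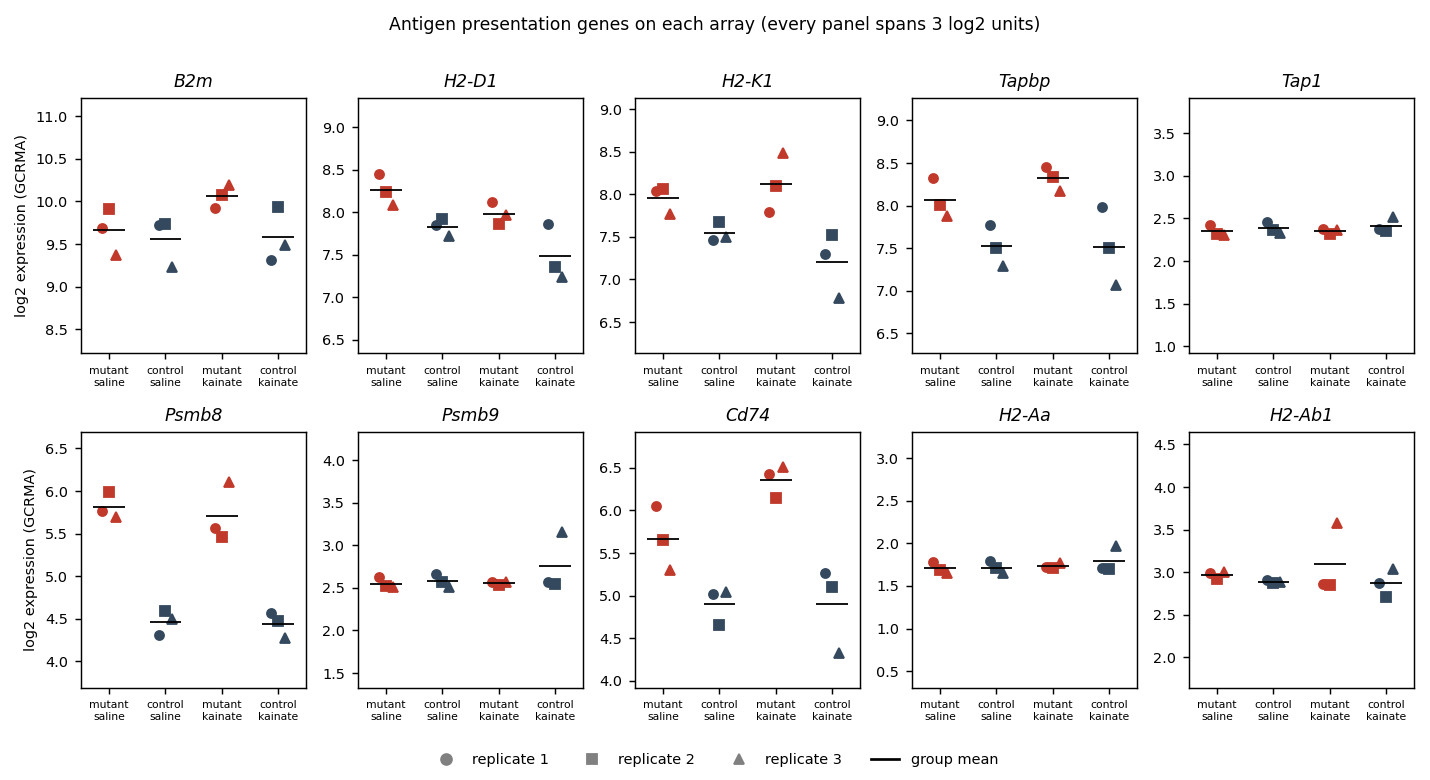
Log2 GCRMA expression of each gene on each of the 12 arrays (brightest probe set), with mutant groups in red left of control groups in dark blue, marker shapes for replicates 1 to 3 and bars for group means of 3 arrays. Psmb8, Cd74 and H2-K1 show all 6 mutant arrays above all 6 control arrays, while H2-Aa, Psmb9 and Tap1 lie flat near the low end of the scale.

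In counts, 6 of the 17 probe sets had all mutant saline arrays above all control saline arrays, where 3.85% of all probe sets did. Under kainate it was again 6 of 17, where 4.03% of all probe sets did. All 6 mutant arrays exceeded all 6 control arrays for 3 of 17 (Psmb8, Cd74 and H2-K1), where 0.733% of all probe sets did. Past the adjusted threshold of 0.05 were 1 of 17 under saline (Psmb8), where 0.137% of all probe sets passed, 2 of 17 under kainate (Psmb8 and Cd74), where 0.354% passed, and the same 2 averaged over treatments, where 0.612% passed. These shares describe the choice of the genes and support nothing further. Genes on a shared locus, probe sets of 1 gene and genes of 1 cell type are not replicates of the mutation.

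The probe sets below the median level of the array had small averaged differences between genotypes. Above it the differences had no steady order by level, with 0.04 at a mean of 4.80 (H2-K1), 1.31 at 5.11 (Psmb8) and 0.29 at 9.72 (B2m). The 8 probe sets above the median level of the array had averaged differences of 0.04 to 1.31, and the 9 below it had -0.11 to 0.17, beside a median of -0.06 over all probe sets. The dim probe sets include every one of Tap1, Psmb9, H2-Aa and H2-Ab1. Control kainate replicate 3 held the highest value of the 12 arrays for 7 of the 9 dim probe sets, and mutant kainate replicate 3 for the other 2. Within genes the probe sets disagreed in the same manner, since the dimmest set of H2-K1 differed by -0.05 (SE 0.05) and the dimmest of Tapbp by -0.02 (SE 0.06). No detection call was used, and a small difference on a dim probe set is not evidence of equal expression.

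**Figure D3:**
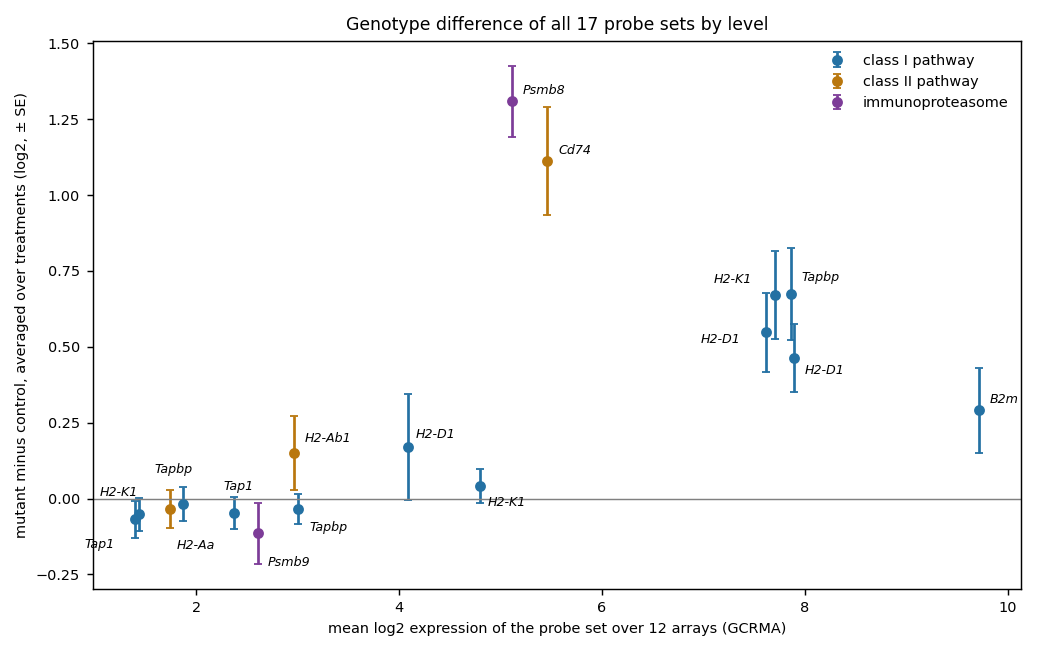
Mutant minus control difference averaged over treatments (log2, ± SE, 6 arrays per genotype) against the mean log2 expression of each of the 17 probe sets, coloured by pathway. Probe sets with means under 5 lie within -0.11 to 0.17, whereas the brighter ones lie between 0.29 and 1.31.

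The replicate 1 arrays were compared with each other and apart from the rest. The averaged mutant minus control difference of Psmb8 was 1.23 between replicate 1 arrays and 1.35 between those of replicates 2 and 3. For Cd74 it was 1.09 and 1.12, for Tapbp 0.51 and 0.76, and for B2m 0.29 and 0.29. H2-K1 gave 0.54 and 0.74, and H2-D1 gave 0.43 and 0.48. Averaged over treatments, these 6 genes were higher in mutants in both subsets, although B2m differed by -0.03 between the replicate 1 arrays under saline. H2-Ab1 gave 0.03 and 0.21, H2-Aa -0.002 and -0.05, Psmb9 -0.02 and -0.16, and Tap1 -0.02 and -0.06. Both subsets belong to the arrays on which the genes were selected, so these values are a description.

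The response to kainate after 1 h asks whether the kainate treatment moved these genes and whether CREB and CREM loss altered that. None of the 17 probe sets passed the test in mutants, where 0.298% of all probe sets passed, and none in controls, where 0.33% passed. None passed for the difference between the 2 responses, where 0% of all probe sets passed. At an unadjusted p under 0.05 there was 1 of 17 in mutants (Cd74), 0 in controls and 0 for the difference, beside 780, 915 and 107 of all probe sets, where chance gives 621.1. The limma adjusted p ranged between 0.653 and 1.000 in mutants, between 0.684 and 0.991 in controls and between 0.939 and 0.976 for the difference.

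Cd74 had the largest of these effects in mutants. Its level was 6.36 ± 0.19 in mutant kainate arrays and 5.67 ± 0.37 in mutant saline arrays (SD, n = 3 each). The kainate effect was 0.69 (SE 0.25, limma adjusted p = 0.653) in mutants, and 0.00 with a 95% interval of -0.56 to 0.55 in controls. The difference between the genotypes in this effect was 0.69, with an interval of -0.10 to 1.48 (limma adjusted p = 0.939). B2m had an effect of 0.40 (SE 0.20, limma adjusted p = 0.860) in mutants and 0.02 (SE 0.20) in controls.

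For Psmb8 the kainate effect was -0.11 in mutants, with a 95% interval of -0.47 to 0.26, and -0.03 in controls, with an interval of -0.39 to 0.34. H2-K1 had 0.17 (interval -0.29 to 0.62) in mutants and -0.35 (interval -0.80 to 0.11) in controls. Among these 10 genes, H2-D1 had the lowest unadjusted p in controls, with an effect of -0.34 (interval -0.69 to 0.01, limma adjusted p = 0.684), and its effect in mutants was -0.27. The interval of Cd74 in controls allows changes of up to 0.55 in either direction, so a missed threshold does not show that the response was absent.

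**Figure D4:**
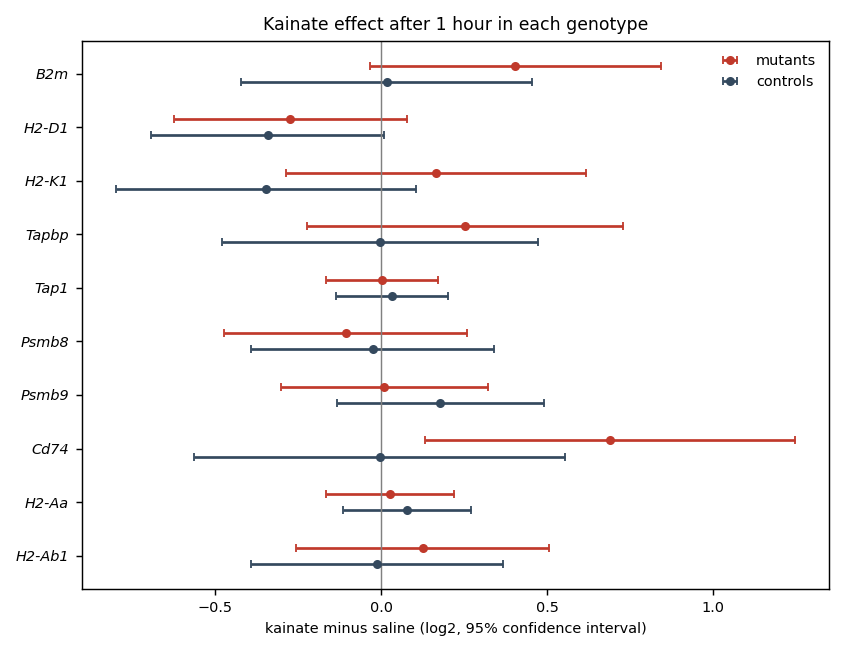
Kainate minus saline effect (log2, with 95% confidence intervals of the limma fit) in mutants (red) and controls (dark blue) for the brightest probe set of each gene. Cd74 in mutants, at 0.69, is the only effect whose interval leaves out 0, and it did not pass after adjustment.

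Beyond the 10 genes, 73 of 96 further genes of the pathway had a probe set of their own, and none passed the limma test in any of the 6 comparisons. At an unadjusted p under 0.05 there were 14 of the 73 for the averaged genotype difference, beside 743 of all 12422 probe sets. For that under saline there were 8, beside 319, and for that under kainate 11, beside 616. For kainate in mutants and in controls there were 7 each, beside 780 and 915, and for the interaction 1, beside 107. In the class II list, the 14 measured genes had a median averaged difference of 0.11, beside -0.06 over all probe sets. Its brightest member, the lysosomal protease Ctsb, ranged from 11.01 to 11.14 over mutant arrays and from 10.52 to 10.87 over control arrays, with an averaged difference of 0.31 (SE 0.06, limma adjusted p = 0.058). Ctsl, a protease that trims the invariant chain in thymic epithelium, differed by 0.30 (SE 0.07, limma adjusted p = 0.144). The largest averaged difference of the class II list was that of Ctsz, at 1.15 (SE 0.23, limma adjusted p = 0.073).

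None of the 13 measured genes for other class I and class I-like chains passed. Their median averaged difference was -0.09, with a range of -0.14 to 0.16. The brightest, H2-Q4, a nonclassical class I gene, differed by 0.16 (SE 0.11, limma adjusted p = 0.630). Of the 10 genes of peptide transport and loading none passed, with a median of 0.02. The brightest, the chaperone Hspa5, differed by 0.13 (SE 0.12, limma adjusted p = 0.630) and Pdia3, which holds tapasin in the loading complex, by -0.08 (SE 0.28, limma adjusted p = 0.874).

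None of the 14 constitutive proteasome genes passed (median 0.07), nor did the 5 partners and activators of the immunoproteasome (median 0.17), among which the assembly factor Pomp differed by 0.07 (SE 0.11, limma adjusted p = 0.712). None of the 17 regulators passed (median 0.08). The brightest of these, the interferon receptor kinase Jak1, differed by 0.08 (SE 0.06, limma adjusted p = 0.630). Ciita, the master activator of class II genes, lay between 1.50 and 1.62 over mutant arrays and between 1.52 and 1.73 over control arrays, and was among the dimmest probe sets of the array. A further pair of genes was picked after their values were seen, Irf8, a factor of the myeloid lineage, at 0.56 (SE 0.17, limma adjusted p = 0.336), and Nfya, a subunit of the factor that binds CCAAT boxes, whose kainate effect in controls was -0.79 (SE 0.15, limma adjusted p = 0.082).

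The 5 genes most like Psmb8 in pattern, by the root mean square difference of centred log2 values over the 12 arrays, were Mpeg1 (0.204), H1f2 (0.219), C1qb (0.234), Tyrobp (0.269) and Coq7 (0.275). Mpeg1, a pore protein of macrophages, ranged from 8.04 to 8.56 over mutant arrays and from 6.71 to 7.19 over control arrays. Those most like Cd74 were Ctsz (0.217), Gusb (0.274), C1qa (0.308), Osmr (0.321) and Laptm5 (0.322). Ctsz, a lysosomal carboxypeptidase, ranged from 8.58 to 9.98 over mutant arrays and from 7.44 to 8.74 over control arrays. C1qa and C1qb encode chains of complement C1q, Tyrobp a signalling adaptor of myeloid receptors, and Laptm5 a lysosomal membrane protein of blood cells. The likeness of both groups rests on the same 12 arrays and is a description.

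Markers of microglia, the resident macrophages of the brain, were also examined. Of 16 measured markers, 10 were called higher in mutants averaged over treatments, where 0.612% of all probe sets passed in either direction. Under saline it was 6, where 0.137% passed, and under kainate 8, where 0.354% passed. None was called lower. Their mean level was 6.57 to 6.78 in mutant saline arrays, against 5.79 to 5.84 in control saline arrays, and 6.80 to 7.05 in mutant kainate arrays, against 5.87 to 6.12 in control kainate arrays. The mean over the 10 genes was 5.36 to 5.61 in mutant saline arrays, against 5.07 to 5.19 in control saline arrays, and 5.54 to 5.77 in mutant kainate arrays, against 4.99 to 5.18 in control kainate arrays. Among the defining markers, Csf1r differed by 0.70 (SE 0.10, limma adjusted p = 0.011) and Tyrobp by 1.76 (SE 0.12, limma adjusted p = 0.00016), while Itgam and Cx3cr1 were dim and differed by -0.04 (SE 0.05) and 0.19 (SE 0.10). The mean over the 10 genes does not describe each of them, since H2-Aa, Psmb9 and Tap1 had averaged differences of -0.03, -0.11 and -0.05. The microglial markers had been seen to differ earlier, and their part in the higher mean of the 10 genes was not tested.

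Markers of lymphoid and dendritic cells, which carry class II or read it outside the brain, gave no called difference. None of the 7 measured markers of B and dendritic cells and none of the 7 of T cells passed. The mean of the B and dendritic cell markers was 3.06 to 3.20 in mutant saline arrays, against 3.07 to 3.16 in control saline arrays, and 3.11 to 3.13 in mutant kainate arrays, against 3.05 to 3.39 in control kainate arrays. For the T cell markers the mean was 3.10 to 3.25 in mutant saline arrays, against 3.08 to 3.26 in control saline arrays, and 3.07 to 3.12 in mutant kainate arrays, against 3.09 to 3.58 in control kainate arrays. Both lists overlapped between genotypes under either treatment. Their means lay below the median of every array (4.23 to 4.47), so the missed threshold does not show that these cells were equal between genotypes. Cd79a, part of the B cell receptor, lay at 2.24 to 2.36 over mutant arrays and at 2.29 to 2.53 over control arrays, and Cd3e, part of the T cell receptor complex, at 2.33 to 2.45 over mutant arrays and at 2.35 to 2.66 over control arrays. Of the remaining lists, averaged over treatments, 1 of 7 astrocyte markers rose (Gfap, by 1.62, SE 0.21, limma adjusted p = 0.0055). Of 5 hippocampal neuron markers, 1 rose (Bok) and 1 fell (Wfs1), where 0.612% of all probe sets passed. None passed among 9 endothelial, 2 blood, 3 choroid plexus, 5 oligodendrocyte and 7 general neuronal markers. The part of these differences in the values of the 10 genes was not tested.

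**Figure D5:**
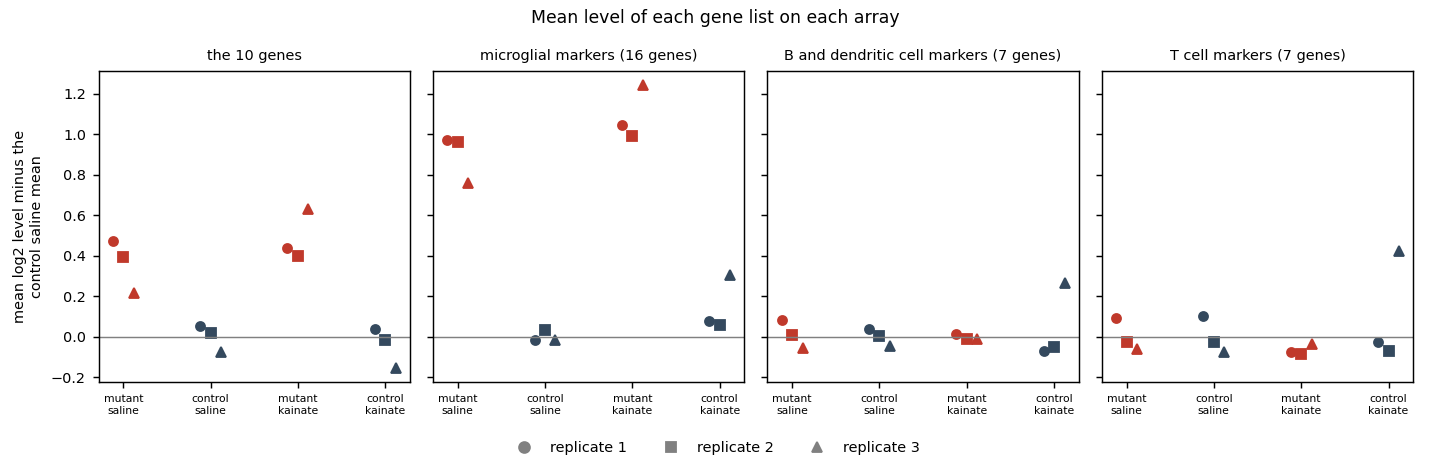
Mean log2 level of the 10 genes and of markers of microglia, of B and dendritic cells and of T cells on each array, each given relative to the mean of the control saline arrays, with mutant groups (red) left of control groups (dark blue) and marker shapes for replicates. The 10 genes and the microglial markers are higher on every mutant array than on the control arrays of the same treatment, and both lymphoid lists are highest on control kainate replicate 3.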

How the data were processed

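The deposited table holds log2 expression values that the authors made with GCRMA in R 2.4.1, per the submitters' processing notes, a method that removes background using the sequence of the probes and quantile-normalises the arrays. The sources used here do not give its version or say if the 12 arrays were run as 1 set. No further normalisation was applied. The table has 12488 rows, of which 66 are controls, and every one of the other 12422 entered the fit.

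The platform annotation supplied the symbols: 10833 probe sets carry 1 symbol, 396 several and 1193 none. limma 3.58.1 in R 4.3.3 fitted 1 mean per group to all 12 arrays (8 residual and 2.48 prior degrees of freedom), with two-sided tests, Benjamini-Hochberg adjustment over all tested probe sets and a threshold of 0.05. The comparisons were kainate against saline in each genotype, their difference (the interaction), and mutants against controls under each treatment and averaged over both. The fit was tested on simulated data. Each array is a pool of 3 animals that the labels call a biological replicate, so p-values measure the spread between pools, and the number of arrays limits the precision. The fit has no term for the replicate number, so this spread includes deviations that arrays of the same number share.

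The members, 6 pathway lists (96 genes) and 10 lists of cell type markers (86 genes) were chosen with earlier results of these data known. A gene with several probe sets is represented by the one with the highest mean. All members are named, as are 1 or 2 of the brightest genes per pathway list and the 5 genes most like Psmb8 and Cd74. Replicate numbers were checked as pairs by correlating deviations from the group means. Alternatives are given in the closing section.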

Additional observations from a re-analysis of the deposited data

How the results depend on the processing

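Counts are probe sets of the 10 genes called of 17, and other pathway genes called of 73. As the 10 genes were selected on their genotype differences, their counts for genotype are descriptions only. The replicate numbers were weighed as pairs: the correlation of array deviations was 0.368 to 0.848 for number 1, 0.302 to 0.583 for number 2 and -0.0109 to 0.621 for number 3. Pairs of number 3 at or below 0 held control kainate replicate 3, and since not every pair exceeded 0.1 the numbers were not used as pairs, although those of numbers 1 and 2 all did. With a replicate block the averaged genotype difference gave 4 (Psmb8, Cd74, Tapbp and H2-D1) and 1 (Ctsz) in place of 2 and 0, and that under kainate gave 3 (Psmb8, Cd74 and Tapbp) and 1 (Ctsz) in place of 2 and 0; it changed no other call. Replicate 1 as a term called these same genes, and 1 pathway gene (Nfya) for kainate in controls. Only replicates 2 and 3 gave 0 of 17 under saline, 0 under kainate and 1 averaged, with 1 pathway gene averaged and 1 (Nfya) for kainate in controls. Quantile normalisation gave 0 under saline, 1 under kainate and 1 averaged, and median centring 1 under kainate and 1 averaged. Only the arrays compared gave 0 under kainate. Probe sets above the median level and an intensity trend each gave 1 pathway gene averaged. Array weights, estimated gene by gene because the default estimate did not converge, gave 3 and 13 under saline, 1 pathway gene under kainate, 4 and 10 averaged, 2 and 13 for kainate in mutants (Cd74 by 0.82, limma adjusted p = 0.0051, and a dimmer H2-K1 probe set by 0.18), and 4 pathway genes for kainate in controls. In these alternatives the cause was not tested.

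Leaving out 1 array at a time gave 0 to 1 of 17 under saline, with 0 without control saline replicate 1 or 3 or mutant saline replicate 2, 1 to 2 under kainate, with Cd74 kept only without control kainate replicate 1 or mutant saline replicate 1, and 1 to 4 averaged, with 4 without control kainate replicate 1. Other pathway genes ran from 0 to 3 averaged, with 3 without control kainate replicate 1, and from 0 to 1 for kainate in controls, with Nfya called without control saline replicate 1. The averaged difference of Psmb8 stayed between 1.21 and 1.37 and that of Cd74 between 0.97 and 1.20 over 20 alternatives, and every one kept its sign. No member passed for kainate in controls or for the interaction under any alternative. Over all probe sets, array weights called 1619, 380, 680, 99 and 478 for kainate in mutants, kainate in controls and the genotype difference under saline, under kainate and averaged, against 37, 41, 17, 44 and 76. The share of genotype calls that were higher in mutants was 61.4% under kainate and 68.4% averaged, 42.9% and 56.0% after quantile normalisation, and 80.0% and 82.4% after median centring. Precision is limited to 3 pools per group and by dim probe sets.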

Other observations

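None of the 14 constitutive proteasome genes passed the limma test for kainate in either genotype. Their mean level was 9.89 to 9.94 in mutant kainate arrays, against 10.02 to 10.09 in mutant saline arrays, and 9.67 to 9.98 in control kainate arrays, against 9.96 to 10.13 in control saline arrays. The lowest of the 12 arrays was control kainate replicate 3, which stood apart, while control kainate replicate 1 lay within the range of the control saline arrays. The mean of the 7 general neuronal markers was 9.82 to 10.48 in mutant kainate arrays, against 10.47 to 10.69 in mutant saline arrays, and 9.96 to 10.65 in control kainate arrays, against 10.74 to 10.75 in control saline arrays. The part of the neuronal markers in the values of the proteasome genes was not tested.

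The brightest of the 3 probe sets that name H2-K1 or H2-D1 among other class I genes stood at 6.66 ± 0.10 in mutant saline, 6.53 ± 0.04 in control saline, 6.53 ± 0.03 in mutant kainate and 6.23 ± 0.37 in control kainate arrays (SD, n = 3 each).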
